A study of Gossypium hirsutum with 17 samples.

Results

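A set of 26 probe sets, of 24029 on the Affymetrix Cotton Genome Array, had a higher signal in cotton seedlings grown with abscisic acid (ABA) and changed little in mannitol or at high pH. A probe set is a group of short probes for 1 transcript, and each array gave it 1 signal intensity. The signals were placed on the log2 scale, on which 1 unit is a fold of 2, and the 17 arrays were quantile normalized, which gives every array the same distribution of values. A change is the mean of a condition minus the mean of the 3 control arrays. Members had a change of at least 1.5 in ABA, every ABA array above every control, mannitol and pH array, and a mean of at least 6 in ABA, with a change between -0.5 and 0.5 in both mannitol and pH. The control, ABA, mannitol and pH values therefore chose the members and are given as a description without a test. The cold and NaCl arrays took no part in the choice.

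All plants were whole seedlings of the upland cotton (Gossypium hirsutum) line C312, harvested 14 days after germination. Control seedlings grew under normal conditions at 25 °C, and the other groups received 1 μM ABA, 200 mM mannitol or 200 mM NaCl at pH 5.8, or medium of pH 11, for 10 days. Cold seedlings were kept at 25 °C and pH 5.8 before 2 days at 4 °C. The pH group had 2 arrays and each of the other 5 groups had 3. The labels call the arrays of a group biological replicates, whereas the methods of the study state that RNA was pooled from the replicates of each treatment, so SDs and p-values measure the spread between arrays, which may be technical. In RNA of whole seedlings, fewer cells of a type and less RNA per cell cannot be told apart.

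ABA is the plant hormone of water shortage and seed maturation. It binds PYR/PYL receptors, which then inhibit type 2C protein phosphatases such as ABI1 and ABI2, and the SnRK2 kinases thus released activate transcription factors of the ABI5 type. Targets known from Arabidopsis include late embryogenesis abundant (LEA) proteins and dehydrins, which protect cells during drying. Mannitol lowers the water potential of the medium and leads plants to make their own ABA, so that much of the response to the hormone is usually shared with osmotic stress.

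Most probe sets raised in ABA were also higher than control in mannitol and at high pH, and the members were chosen as exceptions. In all, 1322 probe sets met the ABA limits (a change of at least 1.5, every ABA array above every control array and an ABA mean of at least 6), and 1202 of them lay above 0.5 in mannitol and in pH alike. Their median change was 2.02 in ABA and 1.89 in both mannitol and pH. Mannitol was within the band of ±0.5 for 64 of the 1322, pH for 71 and both for 27. Of the 27, the probe set that did not become a member is the transcript similar to FAD8 given further on. These changes share the same control arrays, which ties them to each other. The ABA, mannitol and pH arrays were also deposited on a common scale unlike that of the control arrays, and its part in the sharing was not tested.

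**Figure D1:**
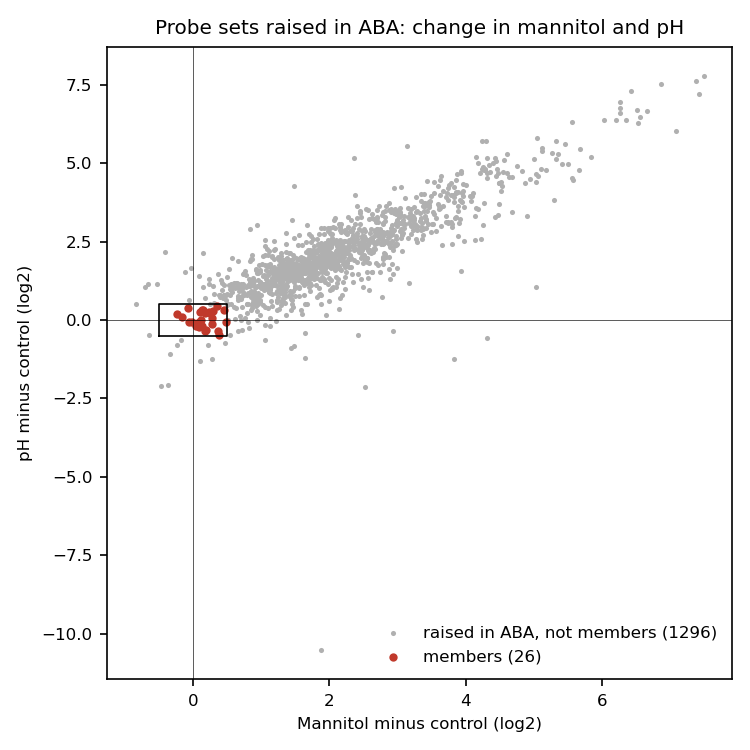
Change in mannitol (x axis, log2) and at high pH (y axis, log2) for the 1322 probe sets raised in ABA, 1 point each. The 26 members (red) lie in the box from -0.5 to 0.5 that the choice of members set, and most of the other 1296 (grey) lie above it on both axes.

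The same limits can be turned to other conditions. With mannitol in the place of ABA 6 probe sets met them, with pH in its place 27, and 49 probe sets were raised in both mannitol and pH while ABA stayed within the band. The pH count rests on 2 arrays, for which the demand that every array be separate is easier to meet. After median centring of the arrays the 4 counts, in the order ABA, mannitol, pH and both, were 25, 2, 27 and 36, and with a trimmed mean scaling 21, 9, 24 and 43. The set raised in ABA was larger than the set raised in mannitol and smaller than the set raised in both mannitol and pH under all 3 scalings, and differed from the pH count by at most 3.

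Among the 26 members, the ABA change ran from 1.51 to 3.23 with a median of 1.66. It was at least 2 in 8 members and under 1.6 in 11. The median change was 0.17 in mannitol and 0.03 in pH. The lowest ABA array lay 0.37 to 1.85 above the highest control, mannitol or pH array, with a median of 1.04. Mean log2 signals in ABA were 6.15 to 11.12 (median 7.73, against 6.03 for all probe sets), and in control 3.93 to 9.09 (median 5.88, against 6.02). For 13 members the control mean was under 6, and changes of such weak signals are less certain in size. The SD between the 3 ABA arrays had a median of 0.32 over the members and 0.29 over all probe sets.

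**Figure D2:**
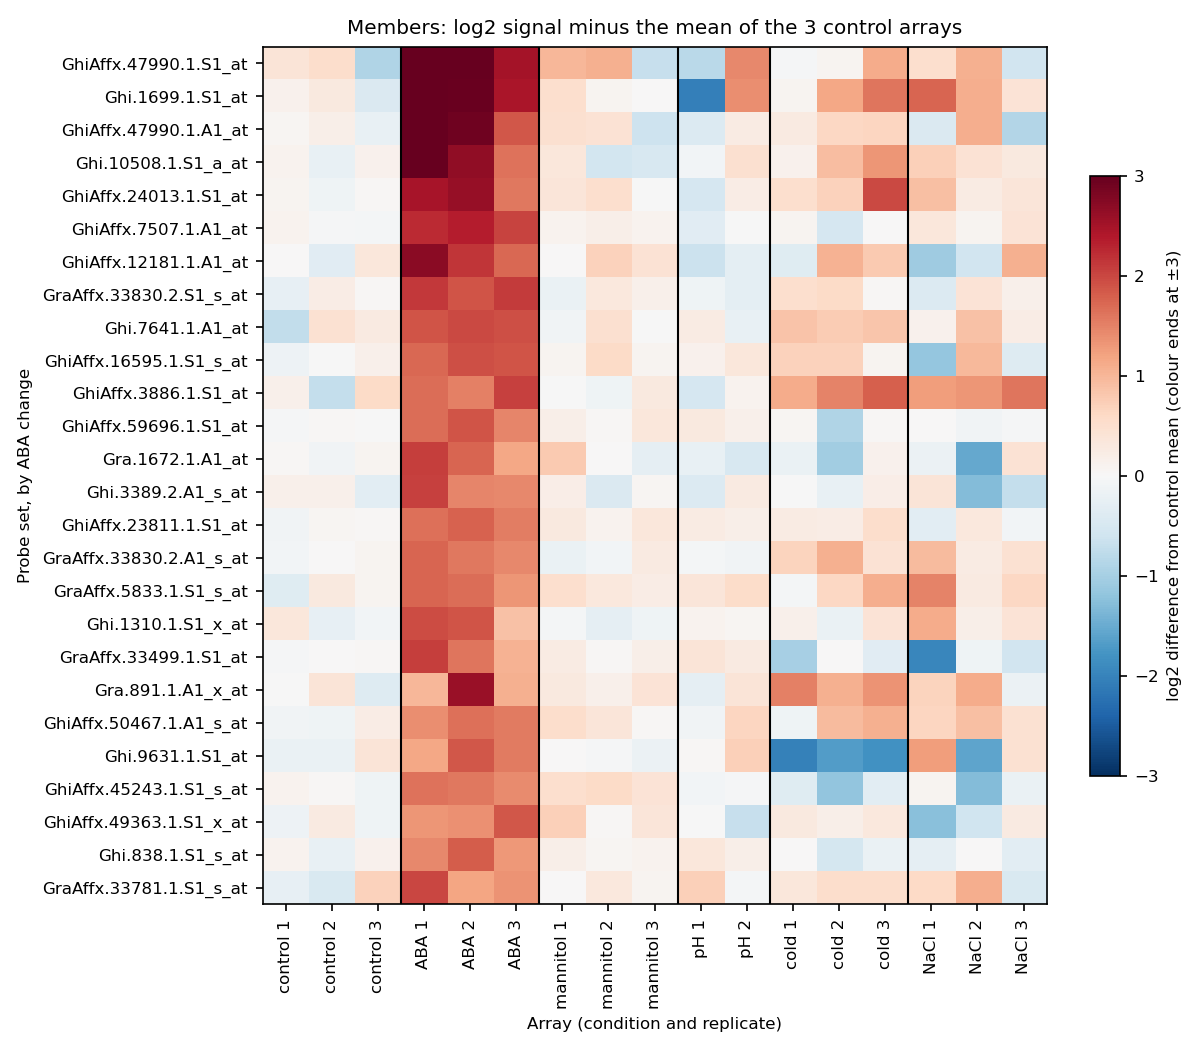
Difference of each array (columns, by condition and replicate) from the control mean for the 26 members (rows, ordered by ABA change), on the log2 scale. The 3 ABA columns are red throughout, mannitol and pH are pale except for single arrays, and cold and NaCl differ from member to member.

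Little is known of what these transcripts encode. The platform's annotation pairs 743 of the 24029 probe sets with a gene and none of the members, and the study's readable annotation describes 11 of the 26. For 8 of those 11 it notes that the sequence is not in UniGene, a catalogue of transcript clusters (631 of 1635 described probe sets carry that note). The only member with a name by similarity is Ghi.838.1.S1_s_at, which resembles an ATP-dependent helicase of Arabidopsis, an enzyme class that unwinds nucleic acids. A stem library of G. hirsutum was the source of 3 described members, Ghi.1699.1.S1_at, GhiAffx.47990.1.A1_at and Ghi.10508.1.S1_a_at, against 42 of the 1635 described. The names begin with Ghi or GhiAffx, for G. hirsutum, in 7 and 12 members (26.9% and 46.2%, against 43% and 26.9% of all probe sets). With Gra or GraAffx, for G. raimondii, they begin in 2 and 5 (7.69% and 19.2%, against 14.2% and 15.2%). By the suffix of the name, 9 members are of the type _s_at, whose probes match several transcripts (34.6%, against 38.6% of all). Another 3 are of the type _x_at, whose probes may cross-hybridize (11.5%, against 6.48%), and 1 is of the type _a_at (3.85%, against 1.9%). Their signals may thus sum more than 1 transcript.

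The largest ABA difference belonged to cluster GhiAffx.47990, of which both probe sets on the array were members. GhiAffx.47990.1.S1_at had log2 signals of 5.04, 5.19 and 3.74 in control, 8.42, 8.08 and 7.14 in ABA, 5.64, 5.72 and 3.97 in mannitol, with 3.84 and 6.09 in pH. In cold it stood at 4.62, 4.73 and 5.77 and in NaCl at 5.16, 5.73 and 4.08. All 3 ABA arrays were above the other 14, and the pH arrays differed from each other by more than the control arrays did.

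The other probe set of the cluster was also highest in ABA, with the remaining conditions close together. GhiAffx.47990.1.A1_at had 4.78, 4.89 and 4.51 in control, 7.92, 7.65 and 6.59 in ABA, 5.20, 5.15 and 4.10 in mannitol, with 4.33 and 4.97 in pH. Its ABA change was 2.66, against 3.23 for the first. The annotation gives both the same UniGene identifier and notes for both that the sequence is not in UniGene, a conflict its text does not settle, and as 1 cluster by name they were not counted as separate transcripts.

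Next in size was Ghi.1699.1.S1_at, at 4.28, 4.44 and 3.71 in control and 7.41, 7.12 and 6.59 in ABA (change 2.90). In mannitol it had 4.64, 4.23 and 4.16, and in pH 2.10 and 5.53. The pH mean lay within the band only as the mean of 1 array below and 1 array above every control array.

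Ghi.10508.1.S1_a_at had 4.82, 4.47 and 4.82 in control, 8.02, 7.38 and 6.34 in ABA, 5.04, 4.16 and 4.24 in mannitol, with 4.62 and 5.19 in pH (ABA change 2.54). The 3 ABA arrays spread over a wide range, and the lowest still exceeded every array of the other 5 conditions. GhiAffx.12181.1.A1_at had 4.70, 4.34 and 5.03 in control and 7.39, 6.84 and 6.42 in ABA (change 2.19). Its pH change of -0.47 lay near the lower end of the band.

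GhiAffx.24013.1.S1_at, the weakest member in ABA, had 4.02, 3.79 and 3.97 in control and 6.40, 6.54 and 5.51 in ABA (change 2.22). One cold array, at 5.90, lay above the lowest ABA array.

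A tighter pattern was found for GhiAffx.7507.1.A1_at. Its log2 signals were 7.31, 7.16 and 7.14 in control, 9.44, 9.56 and 9.24 in ABA, 7.32, 7.39 and 7.31 in mannitol, with 6.86 and 7.19 in pH. In cold they were 7.29, 6.69 and 7.22 and in NaCl 7.54, 7.28 and 7.62. Its ABA arrays stood 1.85 above the highest control, mannitol or pH array, the widest gap among the 26, and the 5 other conditions lay close together.

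The strongest signal of the set was that of GraAffx.33830.2.S1_s_at. It had 8.85, 9.30 and 9.11 in control, 11.20, 10.98 and 11.19 in ABA, 8.89, 9.41 and 9.23 in mannitol, with 8.95 and 8.80 in pH (ABA change 2.04). In cold it had 9.59, 9.67 and 9.11 and in NaCl 8.68, 9.49 and 9.24. The 3 ABA arrays had an SD of 0.13 (n = 3) and stood apart from all 14 others.

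Ghi.7641.1.A1_at had 4.65, 5.85 and 5.65 in control and 7.27, 7.36 and 7.32 in ABA, an SD of 0.05 in ABA (n = 3). Ghi.838.1.S1_s_at, the helicase-like member, had 7.59, 7.26 and 7.62 in control, 8.92, 9.31 and 8.79 in ABA, 7.66, 7.55 and 7.60 in mannitol, with 7.83 and 7.66 in pH. In cold it had 7.50, 6.96 and 7.29 and in NaCl 7.23, 7.50 and 7.18, all below the lowest ABA array. It entered the set near the limit, with an ABA change of 1.52.

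Members and their neighbours across each limit were close. The smallest ABA changes inside were 1.51 (GraAffx.33781.1.S1_s_at) and 1.52, and the largest outside was 1.47 (Ghi.9021.1.S1_s_at). The larger of the mannitol and pH changes was 0.49 in GhiAffx.45243.1.S1_s_at, inside, and 0.51 in GraAffx.24153.2.A1_s_at, outside. The ABA mean was 6.15 in GhiAffx.24013.1.S1_at, inside, and 5.90 in GhiAffx.53620.1.S1_at, outside.

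Other probe sets of the same transcript clusters did not follow the members in most cases. The 26 members fall into 24 clusters by name, 6 of which hold more than 1 probe set, and 6 probe sets of these clusters were no members. GraAffx.33830.1.A1_at, a neighbour of the strongest member, had 4.03, 2.42 and 4.67 in control and 6.04, 6.01 and 5.83 in ABA (change 2.25). Its changes of 1.21 with mannitol and 1.48 at high pH lay outside the band, whereas both members of its cluster stood between -0.21 and 0.09. The changes of Ghi.7641.1.S1_s_at were 1.03 for ABA, 0.68 for mannitol and 0.90 for pH.

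For the other 3 clusters the neighbours were not raised in ABA. Gra.1672.2.A1_at and Gra.1672.2.S1_at stood at -0.48 and 0.14, Ghi.3389.1.A1_s_at at 0.11 and Ghi.1310.1.A1_s_at at -0.88. The members of these clusters stood at 1.66, 1.65 and 1.58. Gra.1672.2.A1_at was weak, with a mean of 3.83 in control and 3.35 in ABA, so the size of its change is less certain. Ghi.3389.1.A1_s_at was instead at 3.71 in cold, with 8.04, 7.07 and 7.49 in control and 10.87, 10.87 and 11.98 in cold, and the member Ghi.3389.2.A1_s_at at 0.00. Ghi.1310.1.A1_s_at and Ghi.7641.1.S1_s_at share the transcript number of their member as well and differ from it in orientation, the A or S of the name. Probe sets that share a cluster or transcript name can thus give different profiles, so a member describes its probe set and not every transcript of a gene.

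**Figure D3:**
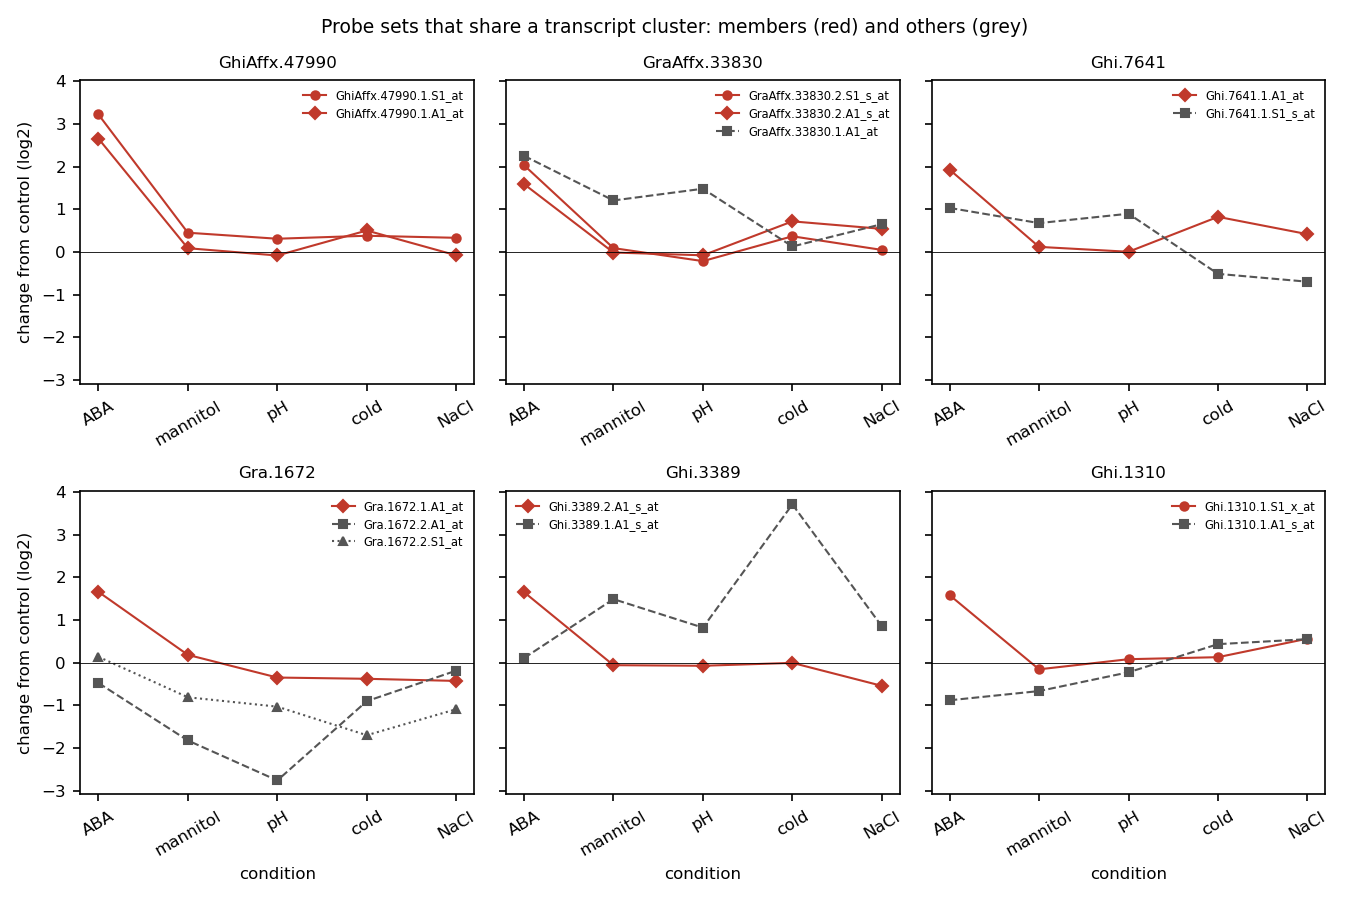
Change from control (y axis, log2) in the 5 conditions (x axis) for the 6 clusters that hold more than 1 probe set, with members in red and other probe sets in grey. In GhiAffx.47990 both members run together, while in Ghi.3389 the other probe set stands at 3.71 in cold and the member at 0.00.

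The known ABA response could be followed through few named transcripts. The names come mostly from probe sets that the study had picked on these arrays, so their direction is not independent evidence. None of the 26 members is in the named gene groups, which were built by name. As 25 of the 26 have no name, this does not show what the members encode. ABA perception and signalling was covered by 4 probe sets, of which all 4 passed the test as higher in ABA, 3 did so in mannitol, 1 each in pH and cold, and 0 in NaCl (limma, fold of at least 2 and Benjamini-Hochberg adjusted p of at most 0.05, where 11.8%, 11.9%, 11.7%, 5.66% and 0.466% of all probe sets passed as higher). Both phosphatases that restrain ABA signalling are named only by weak similarity to Arabidopsis proteins. The ABI2-like probe set passed in mannitol (change 2.80) and cold (2.63) whichever of the 17 arrays was left out. Its ABA call (1.56) held in 9 of 17 omissions and was lost when any single control or mannitol array, or ABA replicate 1 or 2, was left out. The ABI1-like probe set was higher in ABA (2.29), mannitol (2.37) and pH (2.74) in all 17 omissions. Both were weak in control (ABI1-like 3.36, 3.37 and 3.82, ABI2-like 3.52, 3.22 and 3.91), so the size of their changes is less certain. The ABI5-like probe set was stronger, at 8.26, 8.01 and 8.15 in control, and its ABA call (1.22) held in all 17 omissions. Its changes were 1.05 in mannitol, which passed, 0.70 in pH, -0.35 in cold and -0.69 in NaCl. With other tests the counts for this list rose in mannitol, pH and cold. At unadjusted p with the same fold, 4 passed in ABA and mannitol (14.3% of all probe sets in both), 3 at high pH (15%), 3 after cold (9.48%) and 1 in NaCl (4.71%). By SAM, 4 passed in ABA (18%) and mannitol (17.7%), 3 at high pH (19.2%), 3 after cold (10.7%) and 0 in NaCl (0%). The kinase similar to an ABA-inducible protein kinase of rice had changes of 1.55 with ABA, 1.11 with mannitol and 1.33 at high pH, of which only the ABA change passed, and not without ABA replicate 2.

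LEA and dehydration proteins were covered by 4 probe sets, of which all 4 were higher in ABA by the same test, 1 in mannitol, 2 in pH and 0 in either cold or NaCl, where 0 passed at unadjusted p or by SAM too. Lea5-D was close to the threshold in ABA (1.08), mannitol (1.20) and pH (1.32), with adjusted p of 0.0499, 0.0323 and 0.0366 (limma), and each call was lost when any single control array or any single array of its own condition was left out. Its ABA call held in 2 of 17 omissions, and its pH call was lost without mannitol replicate 3 as well. Lea14-A had 10.33, 10.05 and 10.77 in control, 12.92, 12.35 and 10.70 in ABA, 11.07, 10.72 and 11.00 in mannitol, with 10.11 and 10.13 in pH. ABA replicate 3 lay among the control arrays, which kept it out of the ABA limits, and its call in ABA was lost without control or ABA replicate 1 or 2. Gra.2092.2.S1_s_at, similar to a dehydration-responsive protein of Arabidopsis, lost its ABA call (1.66) without control replicate 1 or ABA replicate 2 and held its pH call (1.52) in 9 of 17 omissions, so that of the 4 ABA calls that of the ERD10-like probe set alone held in all 17. No probe set is named for ABA synthesis or for roots, and 1 for green tissue, too few to check the seedling label by its tissues.

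Some named transcripts came near the members' pattern and were singled out after their values were seen. Of the 1322 probe sets raised in ABA, 121 stayed within 2-fold of control in both mannitol and pH, and besides the 26 members 22 of them have a name, 14 of these with a function in it. A transcript with weak similarity to ERD10, a dehydrin of Arabidopsis, had 11.19, 11.42 and 11.60 in control, 13.51, 13.14 and 12.70 in ABA, 11.28, 10.96 and 11.28 in mannitol, with 10.67 and 10.52 in pH. All 3 ABA arrays were above the other 14 arrays, and its pH change of -0.81 took it outside the band. Its cold arrays, at 10.95, 11.98 and 12.46, spread from below control to near the ABA arrays.

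The transcript similar to FAD8, a plastid desaturase that makes trienoic fatty acids, missed the set by a single array. It had 6.61, 6.81 and 6.20 in control, 10.07, 8.50 and 6.97 in ABA, 6.99, 6.60 and 6.40 in mannitol, with 6.10 and 6.72 in pH. The lowest ABA array lay just under the highest mannitol array, although its changes were 1.97 (ABA), 0.12 (mannitol) and -0.13 (pH). The transcript similar to AOC2, an allene oxide cyclase of jasmonate synthesis, had 11.66, 9.92 and 7.71 in ABA against 6.10, 7.33 and 6.49 in control. With ABA its change was 3.12, with mannitol 0.70 and at high pH 0.13, and its ABA arrays differed widely.

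Among transcription factors, bHLH66 had 7.96, 7.84 and 8.13 in control, 9.79, 9.41 and 9.43 in ABA, 8.15, 8.59 and 8.38 in mannitol, with 8.43 and 8.99 in pH. Its 3 cold arrays, at 7.16 or less, all lay under the control arrays. An ARF6-like auxin response factor had changes of 1.84 for ABA, 0.92 for mannitol and 0.52 for pH.

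**Figure D4:**
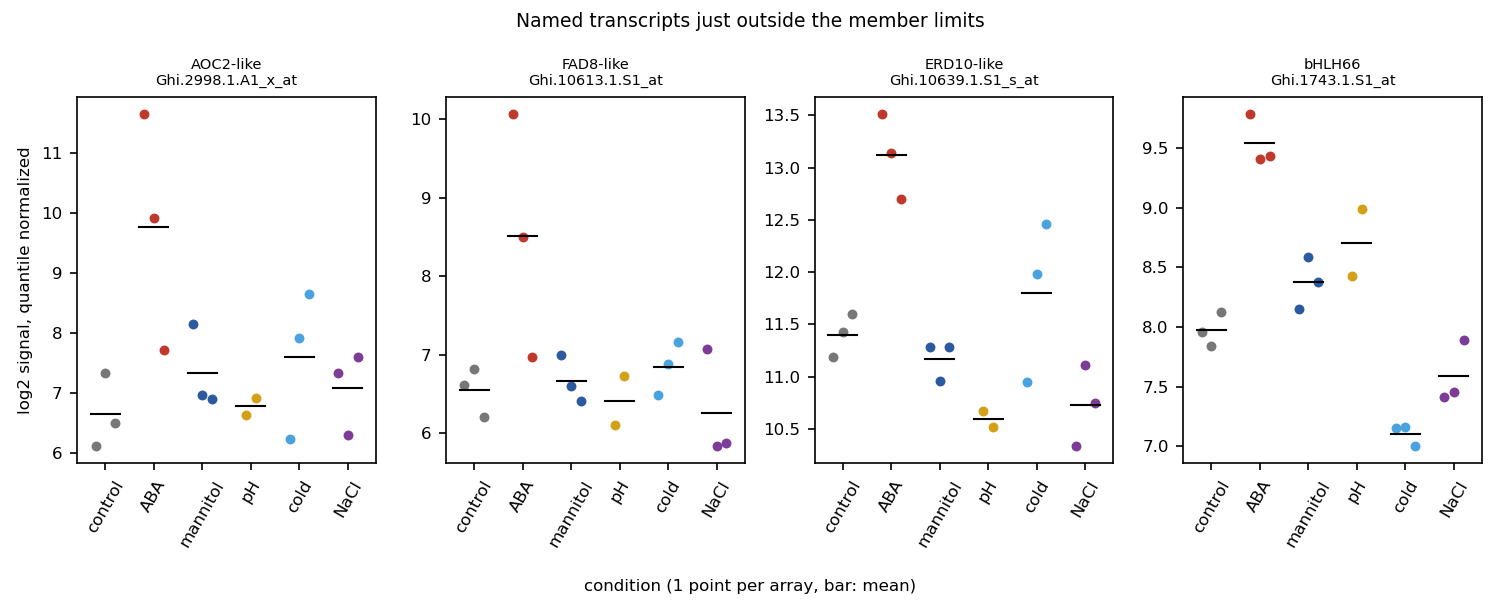
Log2 signal (y axis) of 4 named transcripts near the members' pattern, 1 point per array and a bar for the mean of each condition (x axis). The ERD10-like transcript and bHLH66 have all ABA arrays above control, mannitol and pH, while the lowest ABA array of the FAD8-like (6.97) and AOC2-like (7.71) transcripts lies below a mannitol array.

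The cold and NaCl arrays show what the members did in conditions that did not choose them. The control arrays of these comparisons are those that the choice of members used, whereas cold minus NaCl uses none of its arrays. In cold the median change of the 26 was 0.42, from -1.84 to 1.47, with 18 above 0, beside a median of 0.00 over all probe sets. In NaCl it was 0.16, from -0.89 to 1.39, with 15 above 0, beside -0.03 over all. Both changes were above 0 in 13 members.

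The choice of members set the ABA mean above those of control, mannitol and pH and favoured high ABA values. In all 26 members the ABA mean was also above those of cold and NaCl. Every ABA array was above every cold array in 23 and above every NaCl array in 21. Both held in 20 of 26, beside 14.3% of all probe sets and 80.2% of the 324 that were raised in ABA and above every mannitol and pH array, so the share among the members was no higher than among those 324. Every cold array was above every control array in 8 (18.9% of all probe sets) and below in 2 (17.7%). Every NaCl array was above every control array in 6 (7.16%) and below in 1 (7.98%).

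By limma, 1 member was higher in cold than in control (5.66% of all probe sets) and 1 was lower (5.48%). None was called in NaCl, where 0.466% of all were higher and 0.229% lower. None was called in cold minus NaCl, where 0.162% of all were higher and 0.146% lower. At an unadjusted p of at most 0.05, whatever the fold, there were 6 members in cold (29.3% of all probe sets), 4 in NaCl (14.9%) and 2 in cold minus NaCl (20.3%). The SAM test, as coded here, called 3 higher (10.7% of all) and 1 lower (10.3%) in cold. It called no member in NaCl or in cold minus NaCl, where over all probe sets it called 0% higher and 0.00416% lower in both comparisons.

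GhiAffx.3886.1.S1_at, which has no name, was the member higher in cold. It had 8.28, 7.40 and 8.69 in control, 9.79, 9.63 and 10.17 in ABA, 8.10, 8.00 and 8.41 in mannitol, with 7.61 and 8.23 in pH. In cold it stood at 9.24, 9.61 and 9.92 and in NaCl at 9.38, 9.44 and 9.73. The cold and NaCl arrays were all above the control, mannitol and pH arrays and overlapped with ABA.

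Its cold change was 1.47 (standard error 0.32, adjusted p = 0.0131, limma) and its NaCl change 1.39 (adjusted p = 0.0687). NaCl passed without NaCl replicate 2 (1.43, adjusted p = 0.0456). The cold call held whichever of the 17 arrays was left out (1.11 to 1.75) and ended when limma was fitted to cold and control only (adjusted p = 0.0799) or with NaCl added (adjusted p = 0.118) and without rescaling (adjusted p = 0.35).

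Ghi.9631.1.S1_at, also without a name, was lower in cold. It had 5.51, 5.52 and 6.10 in control, 6.88, 7.58 and 7.27 in ABA, 5.73, 5.66 and 5.54 in mannitol, with 5.74 and 6.43 in pH. In cold it stood at 3.68, 4.03 and 3.89, below the other 5 conditions in every array, and in NaCl at 6.96, 4.12 and 6.17. NaCl replicate 2 thus lay next to the cold arrays and the other NaCl arrays above control.

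Its cold change was -1.84 (standard error 0.53, adjusted p = 0.0363, limma), and cold minus NaCl was -1.88 (adjusted p = 0.114), or -2.71 (adjusted p = 0.000174) without NaCl replicate 2. The cold call held in 8 of 17 omissions (-1.94 to -1.64 over all 17). It was lost when any single control or cold array was left out (adjusted p from 0.059 to 0.117) and when any single mannitol array was (adjusted p from 0.0516 to 0.052). With an offset of 32 it was -0.90, short of a fold of 2.

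Near the threshold in cold, Gra.891.1.A1_x_at had 9.31, 8.86 and 9.15 in cold against 7.79, 8.20 and 7.43 in control and 8.80, 10.40 and 8.87 in ABA. Its change was 1.30 (adjusted p = 0.0596, limma), and it passed with median centring (1.72, adjusted p = 0.0209) and without NaCl replicate 2 or 3 or ABA replicate 2. GhiAffx.24013.1.S1_at stood at 1.06 (adjusted p = 0.0902) and GraAffx.33830.2.A1_s_at at 0.72 (adjusted p = 0.0601).

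GhiAffx.16595.1.S1_s_at had 6.78, 6.91 and 7.07 in control, 8.64, 8.84 and 8.80 in ABA and 5.75, 7.90 and 6.52 in NaCl, with a cold mean of 7.40 ± 0.35 (SD, n = 3). Cold minus NaCl was 0.68 (adjusted p = 0.363, limma) and 1.27 without NaCl replicate 2 (adjusted p = 0.00717), where it passed.

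**Figure D5:**
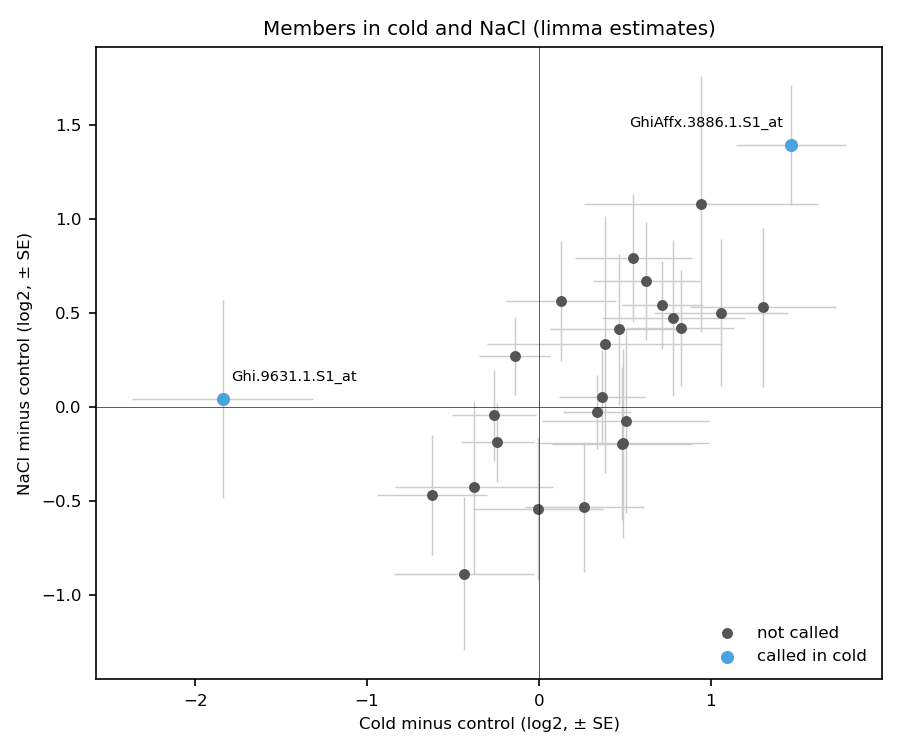
Change in cold (x axis) and in NaCl (y axis) of the 26 members, on the log2 scale with limma standard errors as bars. The 2 members called in cold (blue) are GhiAffx.3886.1.S1_at, at 1.47 and 1.39, and Ghi.9631.1.S1_at, at -1.84 and 0.04.

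Several features of the arrays moved with these results, and their part in them was not tested. The deposited signals were on different scales, with a 2% trimmed mean of 500.1 in each ABA, mannitol and pH array. In control arrays this mean was between 118 and 120, in cold between 107 and 127, in NaCl between 18.5 and 140. ABA, mannitol and pH can be compared as deposited. There the ABA signal of the members was 1.90 to 6.24 times that in mannitol and 2.14 to 9.45 times that in pH. All ABA arrays were above in 26 of 26. The choice of members had already set ABA above mannitol and pH, so these values describe the choice and are not separate support. The log2 ratio of actin 3′ over 5′ signal, used to judge RNA integrity, lay between 4.46 and 5.31 in ABA, 2.78 and 3.05 in control, 2.85 and 3.97 in mannitol, 2.69 and 7.22 in cold, 2.70 and 4.79 in NaCl, and at 4.45 and 4.46 in pH. NaCl replicate 2 was closest to cold replicate 2 (r 0.941), and NaCl replicate 3 to control replicate 3 (r 0.924). ABA replicate 3 was the lowest ABA array in 17 of 26 members (37.1% of all probe sets), replicate 1 in 6 and replicate 2 in 3.

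Membership depended on single arrays and on the scale. Left out 1 at a time, the 11 control, ABA, mannitol and pH arrays gave 21 to 36 members, and 36 without ABA replicate 3. The limits were met in every omission, and with median centring and trimmed mean scaling too, by 8 members: GhiAffx.47990.1.A1_at, GhiAffx.7507.1.A1_at, both of GraAffx.33830.2, Ghi.7641.1.A1_at, GhiAffx.16595.1.S1_s_at, GhiAffx.59696.1.S1_at and GhiAffx.23811.1.S1_at. Of the 8, GraAffx.33830.2.A1_s_at, Ghi.7641.1.A1_at, GhiAffx.59696.1.S1_at and GhiAffx.23811.1.S1_at did not meet the limits with an offset of 32. Of these, GhiAffx.23811.1.S1_at had 8.12, 8.28 and 8.26 in control and 9.87, 9.98 and 9.75 in ABA, and GhiAffx.59696.1.S1_at had 5.59, 5.67 and 5.62 in control and 7.30, 7.50 and 7.10 in ABA.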

How the data were processed

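The authors hybridized labelled RNA to Affymetrix Cotton Genome Arrays, computed MAS5 signals and deposited 1 intensity per probe set and array on a linear scale. Both the labels and the methods speak of Cy3 and Cy5 pairs of treated and control RNA, while the label field gives biotin and each array holds 1 signal, which was taken as the signal of the sample named; this conflict was not settled. The version of MAS5 is not given in the sources used here. After 103 of the 24132 probe sets were removed as Affymetrix controls, log2 intensities of the other 24029 were quantile normalized over 17 arrays, because the deposited scales differed. Arrays were grouped by their labels. Limma 3.58.1 in R 4.3.3 (lmFit, eBayes) was fitted once to all arrays with 1 coefficient per condition. Calls needed a fold of 2 or more with a Benjamini-Hochberg adjusted p of up to 0.05 over all 24029. SAM, the test named in the study's methods, was an alternative, at a q of at most 5%. It was coded here with all label permutations and not run in the study's software, so its counts need not match those of the study. Other alternatives changed the scaling, an offset of 32, a filter on the lowest 25% of signals, the arrays in the fit, the variance model, the block and single arrays. The same limits applied to mannitol and pH, and omissions of ABA, mannitol and pH arrays from the cold and NaCl tests, were added after seeing the data. The members, gene lists and tests were chosen with earlier results of these data known. Named were members with the largest ABA change, members called in cold or NaCl, those next to each limit, neighbours in the same cluster, and named transcripts near the pattern, the last chosen after their values were seen. Scripts were tested on simulated data. The number of arrays limits the precision. Names came from the platform table and the readable part of the study's annotation, and member sequences were not analysed here. Python 3.11.15 and matplotlib 3.10.9 drew the figures.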

Additional observations from a re-analysis of the deposited data

How the results depend on the processing

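The number of members, 26, was 25 with median centring (22 shared), 21 with trimmed mean scaling (18 shared) and 24 when only the control, ABA, mannitol and pH arrays were normalized (21 shared). It was 13 with an offset of 32 (8 shared, not the same 8 that held in every omission), 12 with a band of ±0.25 and 8 with an ABA change of at least 2. Without rescaling it was 19 with 0 shared, since over all probe sets the median change was then 2.09 in ABA, 2.19 in mannitol and 2.11 in pH, and the members stood at 3.66 to 5.43, 2.09 to 2.81 and 1.67 to 2.67. Omission of 1 array gave 21 to 36 members. The count higher in cold, 1, was 2 with median centring, trimmed mean scaling, the offset, the filter on low signals, a variance trend and a replicate block, 3 with unadjusted p and with SAM, and 0 without rescaling and when limma was fitted to control, cold and NaCl only. The count lower in cold, 1, was 0 without rescaling, with the offset, in that smaller fit and with the replicate block. Higher in NaCl, 0 became 1 (GhiAffx.3886.1.S1_at) with the offset, the filter, a variance trend and unadjusted p. Lower in cold than in NaCl, 0 became 1 (Ghi.9631.1.S1_at) with trimmed mean scaling and unadjusted p. Omissions of any of the 17 arrays, of which those of ABA, mannitol and pH arrays were added after seeing the data, gave 1 to 2 higher in cold, 0 to 1 lower in cold, 0 to 1 higher in NaCl, 0 to 1 higher and 0 to 1 lower in cold than in NaCl, and 0 lower in NaCl. Among omissions, NaCl replicate 2 alone changed the NaCl and cold minus NaCl counts. Where 2 were higher in cold, the added one was Gra.891.1.A1_x_at, except without cold replicate 1, where it was GhiAffx.50467.1.A1_s_at (1.01, adjusted p = 0.0396, limma). GhiAffx.24013.1.S1_at was the third with unadjusted p and SAM. A fit to the compared pair alone called Gra.891.1.A1_x_at in place of GhiAffx.3886.1.S1_at. The cause of these shifts was not tested. The cold changes of the 2 members called kept their sign throughout. Without NaCl replicate 2, 4 of the 26 NaCl changes, none of them called, took the other sign, and without rescaling the median NaCl change of the members went from 0.16 to -0.66, beside -0.79 over all probe sets.

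Replicate numbers did not pair the arrays: deviations of arrays with the same number correlated at a mean r of 0.00792 over 40 pairs (-0.183 to 0.196). With the number as a block, Gra.891.1.A1_x_at passed in cold (adjusted p = 0.0476, limma) and Ghi.9631.1.S1_at did not (adjusted p = 0.054).

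With 2 or 3 arrays per condition, only large differences can pass after adjustment over all probe sets, and an unpassed test in cold or NaCl does not show that a member was unchanged. Signals of the members in control often lay near the median of the array or below it, where the size of a change is less certain.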

Other observations

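The actin control probe sets of the array were left out of the member choice as Affymetrix controls. They differed by the cotton species they are named for, and all RNA was from G. hirsutum. Their values come from a quantile normalization with the control probe sets included. The 3′ probe set for G. raimondii actin had log2 changes of 1.93 with ABA, -0.14 with mannitol and -0.91 at high pH, and its middle probe set 1.27, -0.59 and -1.19. Its 5′ probe set stood at -0.38, -1.20 and -1.89. The 3′ probe set had 8.13, 7.84 and 7.54 in control and 10.49, 9.66 and 9.13 in ABA, so that all ABA arrays were above all control arrays. The 3′ probe set for G. hirsutum actin had changes of 0.30 with ABA, 0.13 with mannitol and -0.08 at high pH. Its middle probe set stood at -1.18, -0.45 and -0.90 and its 5′ probe set at -1.98, -0.85 and -1.85. For both species the 5′ change was below the 3′ change in each of these conditions. These values were not tested.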
